A study of Arabidopsis thaliana with 4 samples.

Results

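NAC transcription factors were represented here by 1 gene, NAC014 (AT1G33060, also listed as ANAC014, on chromosome 1). A gene counted as a NAC gene when a probe set was annotated to it alone and its symbol was NAC or ANAC followed by a number. The gene table holds 81 loci with such a symbol. Of these, 1 had a probe set of its own in the annotation used, out of 13356 genes named in this way, and the other loci are not analysed here. A further 39 loci were looked up by names such as CUC2, ATAF1, NST1 or VND7, and 0 of them had a probe set of their own. Since 8730 probe sets had no gene name in the annotation used, these counts describe that annotation and not the array.

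RNA came from whole seedlings of Arabidopsis thaliana, ecotype Columbia. All of them carried pER8-LEC1, an estradiol-inducible transgene for the embryo regulator LEC1 (LEAFY COTYLEDON1). LEC1 induced seedlings had spent 4 days from germination on 10 µM estradiol, and control seedlings the same time on 0.1% DMSO. Each group had 2 arrays, labelled as biological replicates. Estradiol was given only together with the transgene, so an effect of the hormone itself and one of LEC1 cannot be told apart, and neither can fewer cells of a type and less RNA per cell.

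NAC proteins are a large family of plant transcription factors named after NAM, ATAF and CUC, which share a DNA-binding NAC domain near the start of the protein and differ in the rest. Members are known for setting the borders between organs, for building vessel and fibre walls, for leaf senescence and for responses to drought, pathogens and mitochondrial or endoplasmic reticulum stress. NAC014 belongs to the NTM1-like subgroup, whose members carry a membrane-spanning stretch near their end and reach the nucleus after release from the membrane, so that transcript level is only one layer of their control.

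NAC014 was brighter on both LEC1 induced arrays than on either control array, but the 2 control arrays lay far apart, one of them in the dim range, and the difference did not pass the test. As deposited, its signal was 98.9 and 31 in LEC1 induced seedlings, against 1 and 15.8 in control seedlings (replicates 1 and 2 in each). After quantile normalization it was 58.7 and 32.1 in LEC1 induced seedlings and 1.01 and 23.4 in control seedlings. The groups did not overlap, although the dimmer induced array and the brighter control array, both replicate 2, lay only 0.45 apart on the log2 scale, against 5.86 between the replicate 1 arrays. On that scale NAC014 averaged 5.44 ± 0.62 in LEC1 induced seedlings and 2.28 ± 3.21 in control seedlings (SD, n = 2 each).

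**Figure D1:**
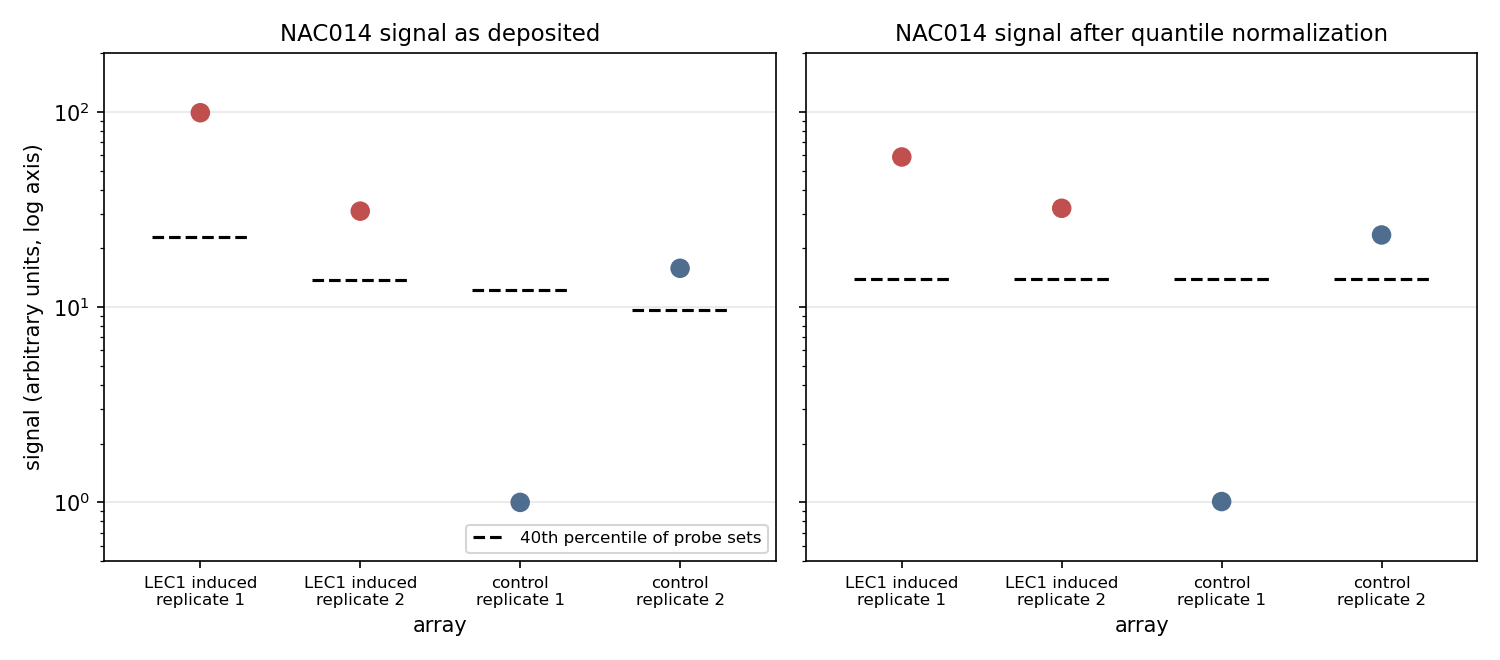
Signal of NAC014 on each array (points, log axis, arbitrary units), as deposited on the left and after quantile normalization on the right, with LEC1 induced arrays in red and control arrays in blue. The dashed lines mark the signal that 40% of probe sets did not exceed, and the replicate 1 control array, with a normalized signal of 1.01, is the one point under its line.

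The difference was 3.16 ± 1.38 SE on the log2 scale, LEC1 induced minus control, with a 95% interval of -0.18 to 6.49 (limma adjusted p = 0.208). Among all tested probe sets 5.74% passed, and 2.83% passed as higher in LEC1 induced seedlings. These were 408 higher and 420 lower probe sets, a split that depended on scaling, at 494 and 97 without normalization and 447 and 962 under median centring. NAC014 was not among them, so 0 of 1 NAC genes was called in either direction, and the count at an unadjusted p under 0.05 was also 0. Of all tested probe sets, 28.9% had a smaller p than NAC014. Groups that do not overlap, with the induced arrays higher, were found for 29.3% of tested probe sets, so this pattern alone does not set NAC014 apart. The exact permutation test over the 4 arrays gave p = 0.333, which is the smallest two-sided p that 2 arrays against 2 allow.

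The size of the change rested on the dimmest value. The replicate 1 control signal lay under the dim limit, the 40th percentile of normalized signals (13.9), while the other 3 arrays were above it. With that array raised to the limit, the means of these arrays gave a fold of at least 2.41 for LEC1 induced over control, against 8.92 from the signals as measured. The fit on signals raised in this way gave a log2 change of 1.27 ± 0.44 SE (limma adjusted p = 0.143). Left out altogether, the same array took the change to 0.88 ± 0.55 SE (limma adjusted p = 0.452). Without control replicate 2, which left the dim array as the only control, the change was 5.49 ± 0.67 SE and passed (limma adjusted p = 0.0335). The lone control in each of these fits is assumed to vary like the other arrays.

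**Figure D2:**
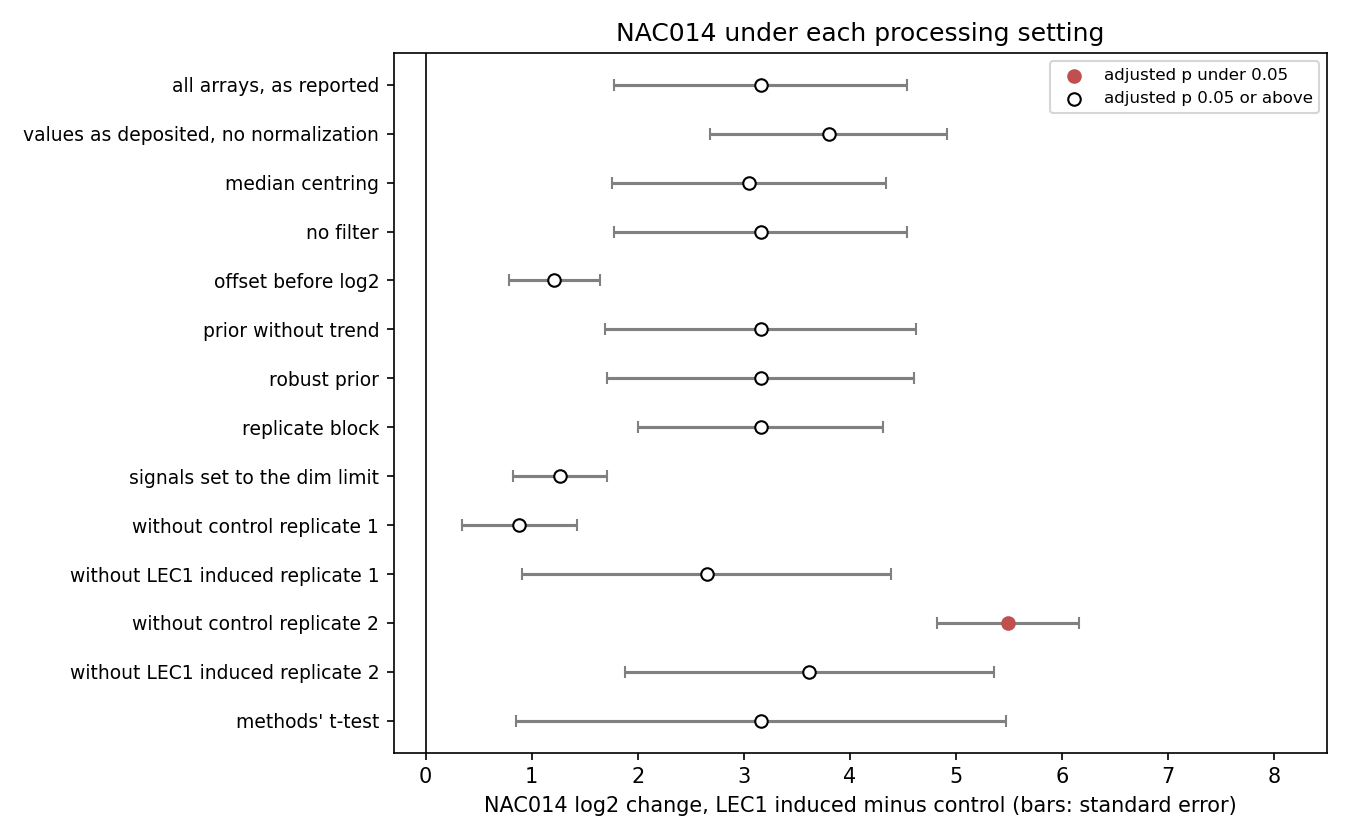
Log2 change of NAC014, LEC1 induced minus control (points, with standard errors as bars), under each processing setting. Refits of the same values and leaving out an array could not turn the sign, since the groups did not overlap. All values are above 0, from 0.88 without control replicate 1 to 5.49 without control replicate 2, and the filled point is the only one with an adjusted p under 0.05.

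How far apart the replicates lay depended on the same dim value. On the log2 scale NAC014 differed by 0.87 between the LEC1 induced arrays and, as measured, by 4.53 between the control arrays. A signal under the dim limit carries no exact level, so with it raised to the limit the control arrays differed by at least 0.75. Over the 3876 tested probe sets whose mean, with signals raised in this way, lay within 0.5 of that of NAC014, the median gap was 0.41 between LEC1 induced arrays and 0.41 between control arrays. A wider gap than that of NAC014 was found for 17.9% of these between LEC1 induced arrays and for 23.8% between control arrays. On this raised scale its LEC1 induced replicates were thus not unusual. The raised control gap is a lower bound set by the limit, so it cannot show whether the control replicates were. As measured, 2220 tested probe sets had a mean within 0.5 of that of NAC014. Of these, 25.4% had a wider gap between LEC1 induced arrays and 0.5% between control arrays. The SE and adjusted p first given for NAC014 came from the measured signals, where its control gap was among the widest.

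**Figure D3:**
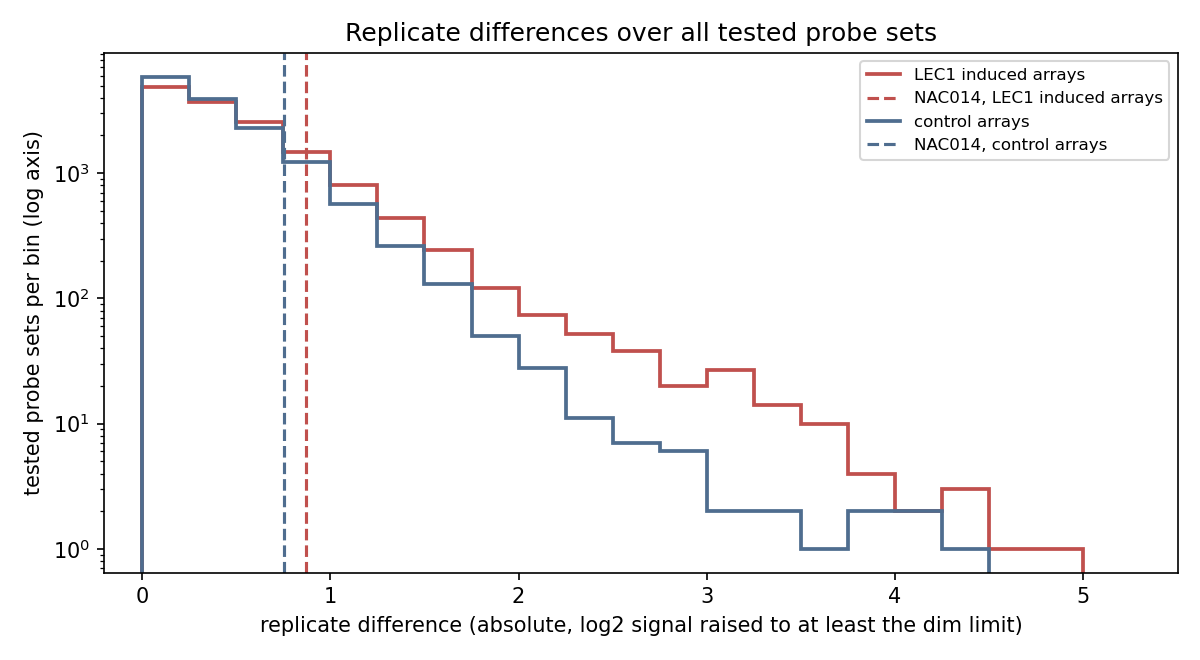
Number of tested probe sets (log axis) by the absolute difference between the 2 replicates of a group on the log2 scale, with signals raised to at least the dim limit, for LEC1 induced arrays (red) and control arrays (blue). The dashed lines mark NAC014, at 0.87 among LEC1 induced arrays and at 0.75, a lower bound, among control arrays. Both lie within the bulk of probe sets on this raised scale, while the control gap as measured was 4.53.

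Array-wide measures also differed by array. The median deposited signal was 39.4 and 22.3 on LEC1 induced arrays and 20 and 15.5 on control arrays. The poly-A spike RNAs, added in the laboratory and read by 24 probe sets, had a mean log2 deposited signal of 7.83 and 6.41 on LEC1 induced arrays and of 8.40 and 6.34 on control arrays, so replicate 1 was brighter in both groups. The signal ratio of 3' to 5' actin probe sets was 1.96 and 1.94 on LEC1 induced arrays and 3.28 and 3.01 on control arrays in one design of these probe sets, and 21.6 and 20.7 against 21.8 and 25.1 in the other. For GAPDH the ratio was lower on control arrays, at 0.77 and 0.89 against 0.93 and 0.91 on LEC1 induced arrays. The part of these differences in the NAC014 values was not tested. Of the markers for embryo and seed maturation, 4 of 18 listed loci had a probe set of their own and 3 were tested. PAP85, OLEO3 and EEL encode a vicilin-like storage protein, an oil body coat protein and a bZIP regulator of seed maturation. All 3 were called higher (limma adjusted p = 4.06e-05, 1.19e-04 and 0.0036), as were 2.83% of all tested probe sets. PAP85 and EEL were under the dim limit on both control arrays. They passed the filter through the LEC1 induced arrays alone, so their calls add no support beyond the high signals that selected them. BBM, which encodes an AP2-type embryo regulator, fell under the filter, with deposited signals of 30.9 and 9.2 in LEC1 induced seedlings and 5.6 and 0.7 in control seedlings. The summed normalized signal of the 3 tested markers was 11494 and 10771 in LEC1 induced seedlings and 43.9 and 55.6 in control seedlings.

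Processes in which NAC factors act were followed through 6 lists, of senescence, water stress and hormone response, vessel and secondary wall, meristem and organ boundary, mitochondrial and endoplasmic reticulum stress, and pathogen response genes. Of 155 listed loci 21 had a probe set of their own and 13 were tested. Of these 13, 0 passed the limma test over all probe sets, against 5.74% of all tested probe sets. An unadjusted p under 0.05 was found for 4 of them, and for 26.5% of all. Counts this close to those shares do not set the lists apart. The methods' own test called 0 of the 13 at the authors' false discovery rate, and 2.74% of all tested probe sets. In 8 of them the mean was higher in LEC1 induced seedlings and in 5 it was lower, with a median log2 change of 0.30, against 0.00 over all tested probe sets. The lists stand for processes and were not chosen as targets of NAC014.

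NAC014's membrane-anchored class has counterparts among bZIP factors, and none of the 3 measured passed the test, against 5.74% of all tested probe sets. BZIP28, BZIP17 and BZIP60 encode bZIP transcription factors of the endoplasmic reticulum stress response that are likewise held at a membrane. BZIP28 had normalized signals of 239 and 227 in LEC1 induced seedlings and 200.02 and 120.0 in control seedlings, a log2 change of 0.59 ± 0.36 SE (limma adjusted p = 0.339). BZIP17 had 61.9 and 112 in LEC1 induced seedlings and 62.1 and 56.5 in control seedlings, a log2 change of 0.49 ± 0.38 SE (limma adjusted p = 0.447). BZIP60 had 286 and 98.1 in LEC1 induced seedlings and 322 and 172 in control seedlings, a log2 change of -0.49 ± 0.58 SE (limma adjusted p = 0.619), and its sign turned without LEC1 induced replicate 2. The groups overlapped for BZIP17 and BZIP60. ATERDJ3B, a chaperone partner of the endoplasmic reticulum, differed by 1.01 ± 0.36 SE (limma adjusted p = 0.139), and NDB2, an alternative NADH dehydrogenase of the mitochondrion, by 0.30 ± 0.30 SE (limma adjusted p = 0.561).

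The other listed genes gave no call either, where 5.74% of all tested probe sets did. COR47, a dehydrin gene of cold and water stress, had normalized signals of 2146 and 1207 in LEC1 induced seedlings and 776 and 458 in control seedlings, a log2 change of 1.43 ± 0.39 SE (limma adjusted p = 0.0842). It was the smallest adjusted p among the 13 genes. The log2 change of COR47 was 1.05 without LEC1 induced replicate 1 and 1.86 without replicate 2. Among senescence genes, SAG29, a sugar transporter of the SWEET family, differed by 1.39 ± 0.42 SE and NOL, a chlorophyll b reductase, by 0.85 ± 0.32 SE (limma adjusted p = 0.103 and 0.160). WRKY6 and WRKY53, transcription factors of senescence and defence, differed by 0.07 ± 0.53 SE and -0.66 ± 0.84 SE, and the sign of each turned under some alternatives. WRKY53 came to -2.02 without LEC1 induced replicate 1 and to 0.74 without replicate 2. For these fits and those of COR47, which held a lone LEC1 induced array, only the changes are given and not whether they passed. In the secondary wall list GUT2 and IRX15-L, both of xylan synthesis, differed by -0.70 ± 0.44 SE and -1.13 ± 0.53 SE (limma adjusted p = 0.350 and 0.235), and GUT2 came to 0.00 without normalization. The defensin gene PDF1.2 differed by -1.29 ± 0.78 SE (limma adjusted p = 0.332). Its signal on LEC1 induced replicate 1 was under the dim limit. With that array raised to the limit, its fold, lower in LEC1 induced seedlings, was at least 1.39, against 2.45 as measured.

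**Figure D4:**
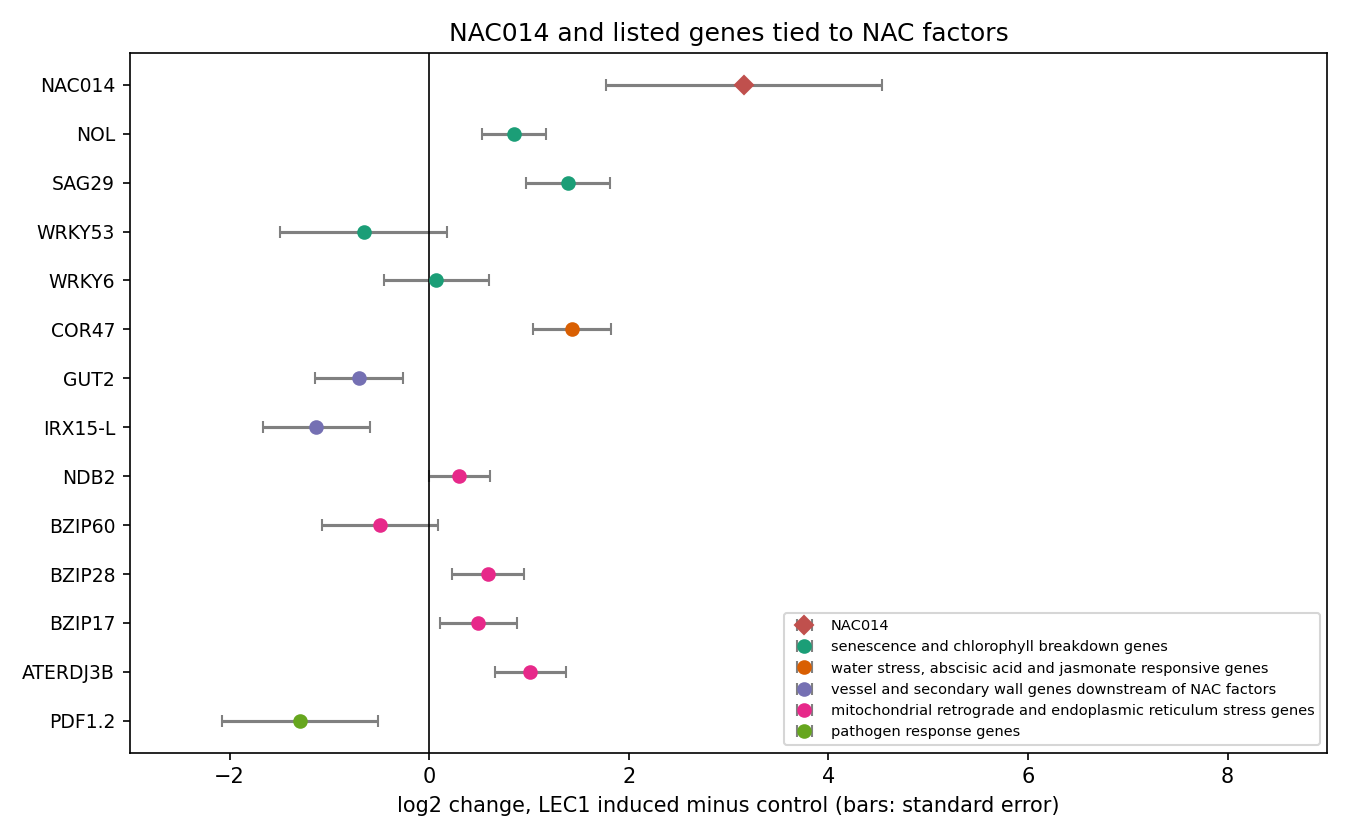
Log2 change, LEC1 induced minus control (points, with standard errors as bars), of NAC014 and of the 13 tested genes from the lists, coloured by list. NAC014, at 3.16, has the widest bar, and the listed genes lie between -1.29 and 1.43.

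Markers of the seedling's own organs were sparsely measured, and 4 genes were tested. RCA, the Rubisco activase of leaves, EXPA7, a root hair expansin, SWEET11, a sucrose transporter of the phloem, and SPCH, a regulator of the stomatal lineage, had log2 changes of -1.31 ± 0.32, -1.23 ± 0.44, -0.59 ± 0.27 and -1.07 ± 0.52 SE. Their limma adjusted p-values were 0.0651, 0.142, 0.227 and 0.243, so 0 of 4 was called, against 5.74% of all tested probe sets. An unadjusted p under 0.05 was found for 2 of them, against 26.5% of all, and the methods' own test called 1 at the authors' false discovery rate, against 2.74% of all. RCA passed as lower under median centring (limma adjusted p = 0.0238), where 9.76% of all tested probe sets passed, 962 of 1409 as lower. Without LEC1 induced replicate 1 and replicate 2 its log2 change was -0.91 and -1.72, and that of EXPA7 was -0.73 and -1.78. Each of these fits held a lone LEC1 induced array, so only the changes are given and not whether they passed. All 4 had both induced arrays below both control arrays, as did 29.0% of all tested probe sets. SPCH was under the dim limit on both LEC1 induced arrays. It passed the filter through the control arrays alone, so its lower values add no support beyond the control signals that selected it. The guard cell markers FAMA and MUTE fell under the filter. FAMA, which was not lower, had deposited signals of 15.4 and 6.7 in LEC1 induced seedlings and 8.0 and 6.7 in control seedlings. MUTE had 0.4 and 0.8 in LEC1 induced seedlings and 4.9 and 2.5 in control seedlings. The part of organ proportions in the NAC014 values was not tested.

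The genes next to NAC014 on the chromosome were looked at after its values had been seen. Of the 5 protein-coding genes on each side in the gene table, 5 in all had a probe set of their own and 3 were tested. AT1G33050 had normalized signals of 38.7 and 23.2 in LEC1 induced seedlings and 13.9 and 22.1 in control seedlings, a log2 change of 0.78 ± 0.46 SE (limma adjusted p = 0.326). Like NAC014 it was dimmest on control replicate 1, where its normalized signal was just at the dim limit. AT1G33055, the neighbour on the same side and next to NAC014, differed by -0.58 ± 0.33 SE (limma adjusted p = 0.318) and AT1G33080, on the other side, by -0.50 ± 0.53 SE (limma adjusted p = 0.578), and both signs turned without normalization. AT1G33080 was under the dim limit on both LEC1 induced arrays. It passed the filter through the control arrays alone, so its lower mean adds no support beyond the control signals that selected it. None of the 3 was called, against 5.74% of all tested probe sets. An unadjusted p under 0.05 was found for 0 of them, against 26.5% of all. With 3 genes, these counts do not set the neighbours apart.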

How the data were processed

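RNA of 4 seedling samples was hybridized to Affymetrix ATH1 arrays, per the series' design text. The deposited table holds linear signal intensity per probe set and array, made with MAS5 per the submitters' processing notes. No scaling target or detection call is given there. Genes absent throughout were dropped by the authors, who took a false discovery rate under 0.2, per the design text.

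Of 22746 probe sets left after 64 array controls, 13513 named 1 gene in the platform annotation, with symbols updated from the TAIR10.1 gene table. Another 503 named several genes and 8730 were not named here. Values under 0.1 (8 values) were set to 0.1, and log2 signals were quantile normalized, since array medians differed. A probe set was tested if it lay above the 40th percentile of its array on at least 2 arrays. The two-sided test of LEC1 induced against control used limma 3.58.1 (lmFit, then eBayes with trend) under R 4.3.3. P-values were adjusted over all tested probe sets by the Benjamini-Hochberg method, and 0.05 was the threshold. The fit was tested on simulated data in which every probe set had the same SD, the median residual SD of 0.35. The residual SD of NAC014 was 2.31, so that test does not cover a gene with such a spread. A gene with several probe sets was read from the brightest.

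Named genes were, by rule, every called NAC gene, uncalled ones with non-overlapping groups and a log2 change of at least 1, the brightest NAC genes, and the called members of each list or else its brightest. The other list members were added after their values were seen. The NAC genes and lists were chosen with earlier results of these data known. The alternatives were other scalings, filters, an offset of 16, variance priors, a replicate block, the methods' own test and leaving out each array. Setting dim signals to a limit was added after seeing the data. Only 2 arrays per group limit the precision. With 2 numbered pairs, whose deviations from their group means correlated at 0.31 across probe sets, the labels give a shared number and no further link, so arrays were not treated as paired.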

Additional observations from a re-analysis of the deposited data

How the results depend on the processing

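Both LEC1 induced values of NAC014 lay above both control values. Its sign was thus fixed under refits of the same values and when an array was left out. Its log2 changes ran from 0.88 to 5.49, with adjusted p-values of up to 0.547. NAC014 was higher in LEC1 induced seedlings under all 13 alternatives that gave it a value. It was called under 1 of them, without control replicate 2, so leaving out single arrays gave 0 to 1 called NAC genes. The stricter filter left it untested. With the replicate block its change was 3.16 (adjusted p = 0.102), and without normalization 3.80, where the median of all tested probe sets moved by 0.62 (-0.14 under median centring).

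Over all probe sets, the 828 calls became 1409 under median centring, 381 with a prior without trend, 2583 with the replicate block, 155 and 209 without control replicate 2 and 1, 1762 without LEC1 induced replicate 2, and 396 by the methods' t-test at the authors' false discovery rate, or 2 at a rate of 0.05. The replicate block also called COR47, SAG29, ATERDJ3B and RCA (adjusted p = 0.0104, 0.0321, 0.0411 and 0.014), and no other gene named here changed its call with it. EEL was not called by the methods' t-test (adjusted p = 0.223), and SWEET11 was (0.190).

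Without normalization the log2 change turned to 0.0304 for WRKY53, 0.11 for AT1G33055, 0.20 for AT1G33080 and 0.0034 for GUT2. With single arrays left out it ranged from -2.02 to 0.74 for WRKY53, from -1.30 to 0.29 for BZIP60 and from -0.66 to 0.81 for WRKY6. The cause of these changes was not tested. Signals under the dim limit, such as that of NAC014 on control replicate 1, limit how well a fold can be measured.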
